A study of Homo sapiens with 3 samples.

Results

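The miR-30 family was examined in extracellular vesicles (EVs), the membrane-bound particles that cells shed, released by HepG2, an established human liver tumor line. Its members were taken by name, as every listed miR that begins with hsa-miR-30 and a letter from a to e, on either arm. There were 10 such names among the 512 in the table of raw counts, 5 for 5p arms and 5 for 3p arms. A separate entry for the precursor mir-30c-2, with no count, was not included. All 3 EV batches belonged to 1 condition, wildtype HepG2 cells kept for 48 h in serum-free medium, with vesicles pelleted at 100000 × g for 70 min. Each batch gave 1 small RNA library from about 200 ng of RNA. Nothing in the sources used here says whether the batches came from separate cultures, so the spread between them may be technical. Cells were not sequenced, so levels in EVs could not be set against levels in their producer cells.

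miRs are short RNAs that guide Argonaute proteins to messenger RNAs, mainly by pairing of bases 2 to 8, the seed. A precursor hairpin can give a mature miR from its 5p and from its 3p arm, and usually one of these arms is loaded while the other is degraded. The miR-30 family is made from precursors that share the seed of their 5p arm, and is best known from epithelial tissues such as kidney and liver, where it restrains genes of the mesenchymal program.

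Mature sequences for 7 of the 10 names were matched by name in RefSeq (GRCh38.p14), and miR-30b-5p, miR-30d-5p and miR-30d-3p were not. They are shown 5′ to 3′, with the seed in capitals, because the 5p arms share one seed while the 3p arms fall into separate seed groups.
hsa-miR-30a-5p: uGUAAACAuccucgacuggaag
hsa-miR-30c-5p: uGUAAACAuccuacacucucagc
hsa-miR-30e-5p: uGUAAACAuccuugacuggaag
hsa-miR-30a-3p: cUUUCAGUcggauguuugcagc
hsa-miR-30e-3p: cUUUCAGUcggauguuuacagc
hsa-miR-30c-1-3p: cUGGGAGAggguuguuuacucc
hsa-miR-30c-2-3p: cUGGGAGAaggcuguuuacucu

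Among these, the 5p seed GUAAACA was common to miR-30a-5p, miR-30c-5p and miR-30e-5p, and no other listed miR with a matched sequence (451 of 512 names) carried it. The seed UUUCAGU was common to miR-30a-3p and miR-30e-3p, and UGGGAGA to both 3p products of miR-30c. Counted from 1 at the 5′ end, miR-30a-5p and miR-30e-5p differed by 1 base (C13U), and miR-30a-3p and miR-30e-3p also by 1 (G18A), with the miR-30a base given first. miR-30c-5p differed from miR-30a-5p at 5 of 22 positions, all outside the seed. Reads of paralogs that differ by 1 base can be given the wrong name by a single sequencing error, and how the authors' counting treated such reads was not stated in the sources used here. The same limit may hold for miR-30d-5p and miR-30b-5p. Their sequences were not matched, so their differences from the other paralogs were not counted. The mature miR-30c-5p is made by both MIR30C1 (chromosome 1, 40757300 to 40757322, plus strand) and MIR30C2 (chromosome 6, 71377003 to 71377025, minus strand), whose reads cannot be told apart.

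The libraries held 8704, 10834 and 7933 miR counts in batches 1, 2 and 3. At these depths, a miR with no count may still hold up to 0.0345%, 0.0277% or 0.0378% of a library, the share that 3 counts would make. Intervals and such limits cover counting error only, because the reads went through PCR and carried no molecular identifiers. Adapters ligate to some sequences more readily than to others, so counts of different paralogs need not follow their numbers of molecules. The liver origin given by the label was checked with a list of 5 hepatocyte miRs. Of these, 4 were listed among the names, and all 4 were counted, at 15.8%, 16.6% and 16.1% of the counts. Of the list's counts, 71.2% were miR-148a-3p, which many tissues express. Over the batches, miR-192-5p had 820 counts and miR-194-5p only 17. miR-122-5p, the defining miR of hepatocytes, had 216, 98 and 130 counts, or 2.48%, 0.905% and 1.64% of the miR counts, and so varied more than the list's sum. Of 18 miRs that mark blood cells, endothelium, stroma or muscle, 15 were listed and 6 counted, with 32 counts in all. These were miR-145-5p (13 counts) and miR-143-3p (4) of stroma and smooth muscle, miR-126-3p (11) of endothelium, miR-486-5p (2) and miR-223-3p (1) of blood cells, and miR-133a-3p (1) of muscle. Their summed share was 0.195%, 0.0738% and 0.0882% in batches 1, 2 and 3, and the other 9 listed, miR-451a, miR-142-3p and miR-1-3p among them, were at 0 in all batches.

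Most of the family's counts came from a single paralog. In HepG2 EVs the 10 members had 183, 130 and 84 counts, 397 in all, and made up 2.10%, 1.20% and 1.06% of the miR counts in batches 1, 2 and 3, or 1.45% ± 0.566 (SD, n = 3 batches). miR-30d-5p alone held 73.9% ± 6.07 of the family's counts (SD, n = 3), and miR-30c-5p held 15.3% ± 8.40. Members counted in every batch numbered 6, and 8 were counted in at least 1.

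hsa-miR-30d-5p had 135, 104 and 57 counts in batches 1, 2 and 3, and lay at rank 14 of all names by mean raw count. Its share of all miR counts in batch 1 was 1.55%, with a 95% Wilson interval of 1.31% to 1.83%. Batch 2 followed with 0.960% (0.793% to 1.16%), and batch 3 with 0.719% (0.555% to 0.930%). Batch 1 was highest, and its interval did not reach that of either other batch. hsa-miR-30c-5p, at rank 47, had 20, 13 and 21 counts, or 0.230%, 0.120% and 0.265% of the miR counts. Here batch 3 was highest and batch 2 lowest, and the intervals of all batches overlapped.

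hsa-miR-30e-3p, the more abundant arm of its precursor here, had 16, 6 and 3 counts in batches 1, 2 and 3. hsa-miR-30e-5p, its partner arm, had 8, 3 and 1 counts. Both were highest in batch 1 and lowest in batch 3. hsa-miR-30a-5p was near the limit of detection with 1, 2 and 1 counts, and hsa-miR-30b-5p had 1 count in each batch. hsa-miR-30a-3p had 2 counts in batch 1 and none in the others, and miR-30c-2-3p had 1 count, in batch 2. miR-30c-1-3p and miR-30d-3p had no count in any batch. At these depths the order among miR-30a-5p, miR-30b-5p, miR-30a-3p and miR-30c-2-3p could not be read, since none had more than 2 counts in a batch and their intervals overlapped.

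**Figure D1:**
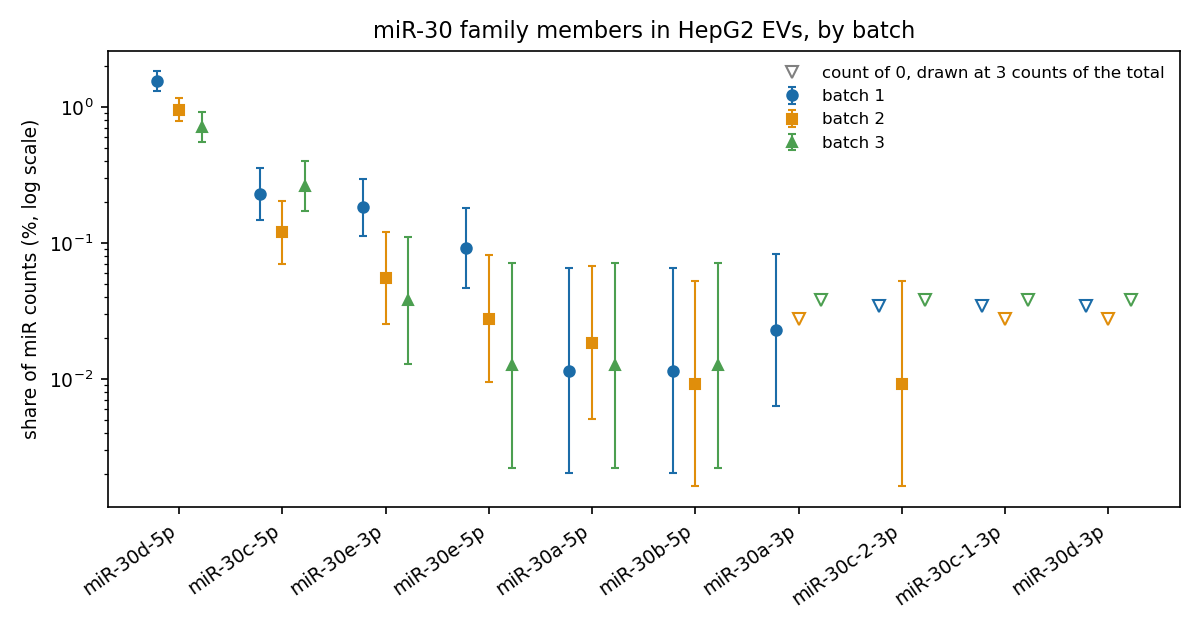
Share of all miR counts (%, log axis) for each of the 10 members in batches 1, 2 and 3 of HepG2 EVs, with 95% Wilson intervals. Open triangles mark a count of 0 and are drawn at the share that 3 counts of the total would have. miR-30d-5p lies above all other members in each batch, from 0.719% to 1.55%, and the 6 members at the right have at most 2 counts in a batch.

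The 2 leading paralogs kept their order in every batch. miR-30d-5p had 6.75-fold, 8-fold and 2.71-fold the counts of miR-30c-5p in batches 1, 2 and 3, a log2 ratio of 2.37 ± 0.83 (SD, n = 3, with 0.5 added to both counts). The exact two-sided sign-flip permutation test gave p = 0.25, the smallest p that 3 batches allow, so this order could not pass a threshold of 0.05. Next in the order, miR-30c-5p exceeded miR-30e-3p in 3 of 3 batches, but by 20 to 16 counts in batch 1, where their intervals overlapped (0.149% to 0.355% for miR-30c-5p and 0.113% to 0.298% for miR-30e-3p).

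As a share of the family, miR-30d-5p held 73.8%, 80.0% and 67.9% in batches 1, 2 and 3, while miR-30c-5p held 10.9%, 10.0% and 25.0%. The share of miR-30c-5p in batch 3 had a 95% Wilson interval of 17.0% to 35.2%, while those of batches 1 and 2 ended at 16.3% and 16.4%. This shift of miR-30c-5p was not tested by itself. Instead, the leading member was set against the rest of its group, to compare its part between batches with counting noise. A group held the miRs with the same number and arm and a letter in their name. The 10 groups with at least 30 counts in sum and at least 2 counted members were compared. This comparison does not depend on the library total. It was added after the values had been seen. The 5p arms of miR-30 had p = 0.0406 in the exact test with fixed margins and an adjusted p of 0.194, and so did not pass the threshold of 0.05. None of the 10 groups did (0%), while 2 had an unadjusted p under 0.05. Over the alternatives the adjusted p for miR-30 ranged from 0.176 to 0.816, the highest in the exact test between batches 1 and 2 alone.

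**Figure D2:**
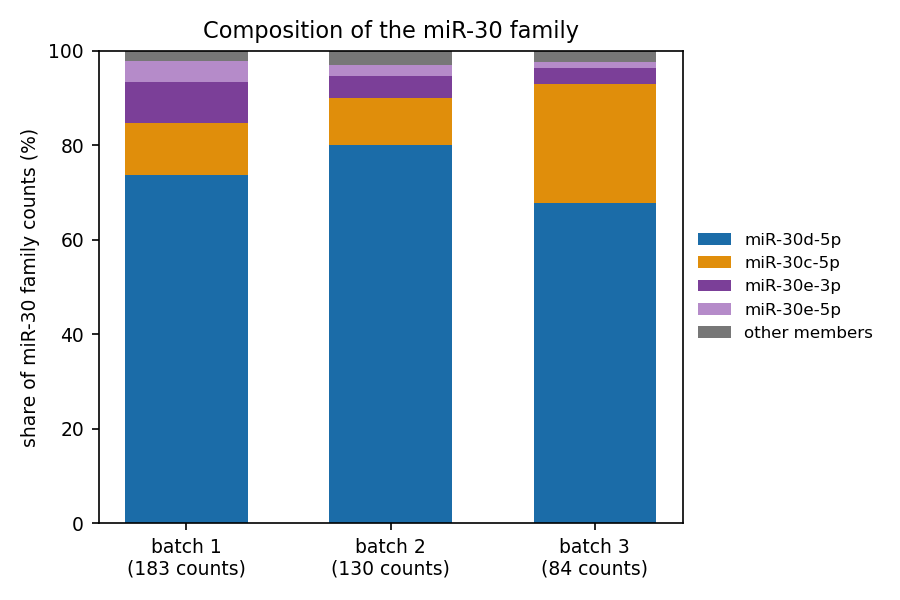
Composition of the miR-30 family counts (%, stacked to 100%) in batches 1, 2 and 3 of HepG2 EVs, with the family's counts under each bar. miR-30d-5p is the largest part of each bar, from 67.9% to 80.0%, and miR-30c-5p takes 25.0% of the bar of batch 3 against 10.9% and 10.0% in batches 1 and 2.

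The arms of the family were used unequally by count, and miR-30d and miR-30e leaned to opposite arms, miR-30e with few counts. Over the family, 5p arms had 165, 123 and 81 counts and 3p arms 18, 7 and 3 counts, so that the 3p arms made up 9.84%, 5.38% and 3.57% of the family in batches 1, 2 and 3. For miR-30d all 135, 104 and 57 counts were from the 5p arm. With 0 of 296 counts on the 3p arm over the batches, the 95% Wilson interval of the 3p share reached 1.28%, and 3 counts would be a share of 1.01%. For miR-30e the 3p arm held 16 of 24, 6 of 9 and 3 of 4 counts, or 66.7%, 66.7% and 75.0%. The 95% Wilson intervals were 46.7% to 82.0%, 35.4% to 87.9% and 30.1% to 95.4%, and each took in equal use of both arms. Pooled over the batches, the 3p arm held 67.6% of the counts (95% Wilson interval 51.5% to 80.4%). That interval treats the reads of all libraries as 1 sample. The 3p share of miR-30e was above the interval of miR-30d in each batch, and the intervals of these precursors did not overlap in any batch. The log2 ratio of the 5p to the 3p arm of miR-30e was -1.02 ± 0.17 (SD, n = 3 batches, 0.5 added to both arms), negative in 3 of 3. As for the paralogs, p was 0.25 in this exact permutation test, the smallest possible with 3 batches. miR-30a had 4 counts on the 5p and 2 on the 3p arm in all, too few to place it.

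miR-30e was not singular among the precursors of the table in having a stronger 3p arm. Of 58 precursors with both arms listed and at least 10 counts over both, 26 had more counts on the 5p and 32 on the 3p arm. Across these precursors the split between arms was compared between the batches by an exact test with fixed margins and Benjamini-Hochberg adjustment, and 3 of 58 (5.17%) passed an adjusted p of 0.05. Neither miR-30d nor miR-30e was among them. Many of the 58 precursors had no count on 1 arm and so could not pass, which lowers the share of 5.17%. They also counted in the adjustment. miR-30e had p = 1 in this exact test, with 37 counts, while miR-30d, with no 3p count, could not show a change of split. miR-30a, with 6 counts, was under the minimum.

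**Figure D3:**
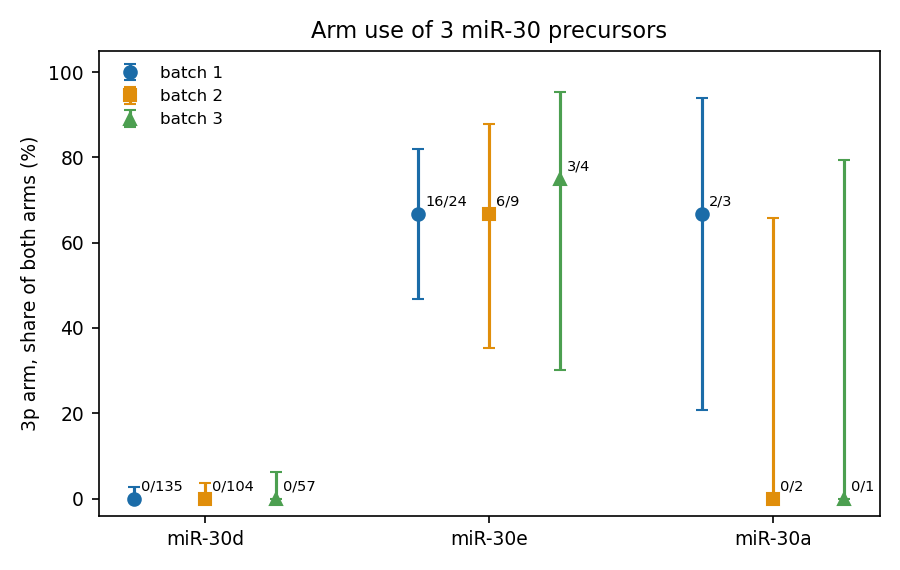
Share of the 3p arm among the counts of both arms (%) for the precursors of miR-30d, miR-30e and miR-30a in batches 1, 2 and 3, with 95% Wilson intervals and the counts (3p of both arms) beside each point. All points of miR-30d lie at 0%, those of miR-30e at 66.7% to 75.0%, and the intervals of miR-30a, from 1 to 3 counts, span most of the axis.

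All miRs that summed to 30 counts or more were tested for a difference between batches by the exact multinomial test against the library totals, with Benjamini-Hochberg adjustment over all 64 such miRs. It sets 1 library per batch against counting noise, and so compares libraries and not conditions. Of the 10 family members, 2 reached this minimum, miR-30d-5p and miR-30c-5p. Among all miRs tested, 25 of 64 miRs (39.1%) passed, so a call was common. miR-30d-5p passed (adjusted p = 5.63e-06, exact multinomial test), its share in batch 1 being 1.62-fold that in batch 2 and 2.16-fold that in batch 3. miR-30c-5p did not pass (adjusted p = 0.112, exact multinomial test). With a minimum of 10 counts, 30 of 99 miRs (30.3%) passed. miR-30e-3p was then among them, highest in batch 1 (adjusted p = 0.0189, exact multinomial test), but not with no minimum (0.0604), and miR-30e-5p was not (adjusted p = 0.128).

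The call of miR-30d-5p depended on batch 1 and on the scaling. Between batches 2 and 3 alone, 4 of 50 miRs (8%) passed and miR-30d-5p did not (adjusted p = 0.398, exact multinomial test), nor did miR-30c-5p (0.172). Between batches 1 and 2, 17 of 59 miRs (28.8%) passed, and between batches 1 and 3, 18 of 54 (33.3%), with miR-30d-5p in both (adjusted p of 0.00136 and 3.68e-06, exact multinomial test). Batch 1 also differed in the weight of the 5 most abundant miRs, which held 47.7% of its counts, against 63.0% and 63.9% in batches 2 and 3. With totals taken without these 5, 15 of 59 miRs (25.4%) passed, and miR-30d-5p did not (adjusted p = 0.110, exact multinomial test). With TMM-scaled totals and with DESeq2 size factors, which both set the libraries to a common middle level, 22 of 64 miRs passed in each (34.4%), and miR-30d-5p was among them (adjusted p of 0.0292 and 0.0243, exact multinomial test). The calls highest in batch 1 were then 8 of 22 on either scale, and 19 of 25 with plain totals. On these scales its level in batch 1 was 1.21 and 1.23 times its mean over the batches, against 1.44 times with the plain totals. It was lowest in batch 3 on all 4 scales. The listed miRs of other cell types were also highest in batch 1 (0.195%), and their part in the difference was not tested.

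Relative to its own mean, miR-30c-5p was highest in batch 3 on each scale, at 1.29, 1.42, 1.42 and 1.47 times its mean with plain totals, TMM, DESeq2 size factors and totals without the 5 leading miRs. In none of these did it pass (adjusted p from 0.112 to 0.187, exact multinomial test). Batch 3 thus held the lowest level of miR-30d-5p and the highest of miR-30c-5p. Their other extremes lay elsewhere. With plain totals, miR-30d-5p was highest in batch 1 (1.44 times its mean) and miR-30c-5p lowest in batch 2 (0.586 times). The split of miR-30d-5p against the other 5p arms did not pass the threshold, as given above. The part of miR-30c-5p in the family was not tested by itself.

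**Figure D4:**
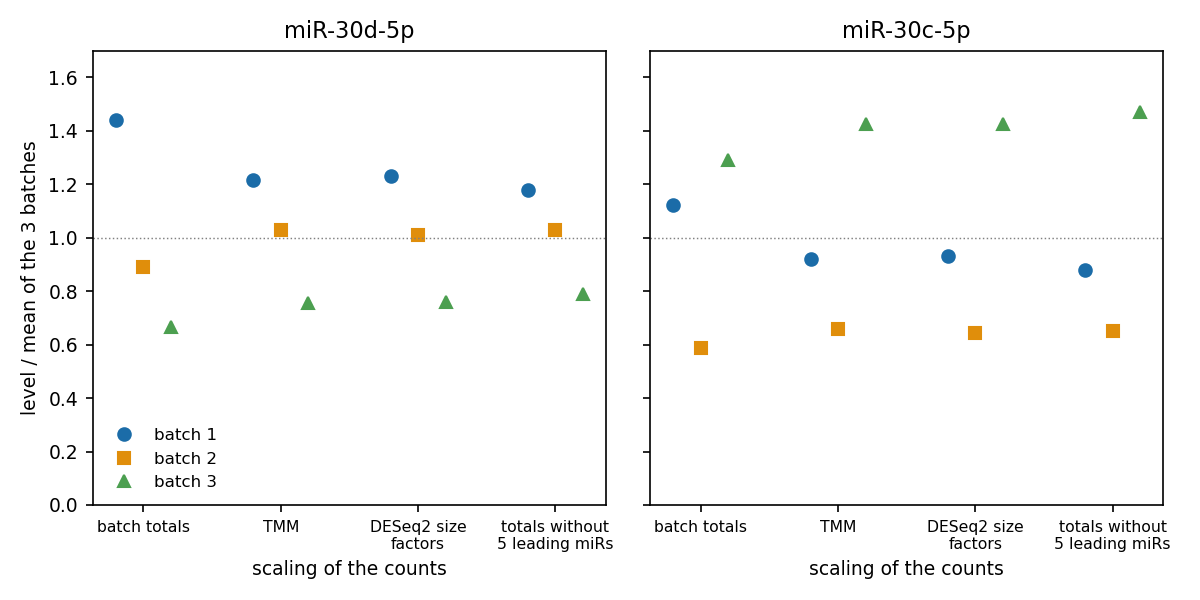
Level of miR-30d-5p (left) and miR-30c-5p (right) in batches 1, 2 and 3, each divided by its mean over the batches, with the counts scaled in 4 ways. For miR-30d-5p the gap between batch 1 and the rest narrows from 1.44 times the mean with batch totals to 1.18 times with totals taken without the 5 leading miRs, and miR-30c-5p is highest in batch 3 on every scale.

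The miRs that divided their counts over the batches most like miR-30d-5p were miR-106b-3p, miR-26a-5p, let-7a-5p, miR-200b-3p and miR-99b-5p. Likeness was the Euclidean distance between the shares in the 3 batches, rescaled to sum to 1, over 63 other miRs with at least 30 counts. The nearest, miR-106b-3p, had 23, 18 and 10 counts and a distance of 0.00687. miR-200b-3p, a miR of epithelial cells, had 28, 24 and 14 counts and a distance of 0.0417. miR-30c-5p stood at place 52 of these 63. Among the named miRs, miR-26a-5p and miR-99b-5p passed the test between batches. miR-106b-3p, let-7a-5p and miR-200b-3p did not (adjusted p of 0.206, 0.159 and 0.263, exact multinomial test), so their division may be counting noise. A likeness over 3 batches is a description only.

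Grouped by name (the same number and arm, with a letter), the 5p arms of miR-30 were at rank 5 of 47 such groups by mean share, with 1.35% of the miR counts. Above them were the groups led by miR-148a-3p (11.6%), miR-320a (10.1%), miR-92a-3p (2.35%) and miR-146a-5p (1.51%). The rank was 4 in batches 1 and 3 and 5 in batch 2. In 8 groups with at least 100 counts and at least 2 counted members, the share of the leading member ran from 99.7% for miR-92a-3p to 52.8% for let-7g-5p, and miR-30d-5p, with 80.2% of the 5p counts of miR-30, stood at place 6.

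The miR-30 precursors lie in pairs on GRCh38 (GENCODE 29). MIR30E (40754355 to 40754446) and MIR30C1 (40757284 to 40757372) lie on the plus strand of chromosome 1, in an intron of NFYC, which encodes a subunit of the transcription factor NF-Y, 2837 bases apart. The pair of MIR30C2 (71376960 to 71377031) and MIR30A (71403551 to 71403621) lies on the minus strand of chromosome 6, 26519 bases apart, in introns of the non-coding gene LINC00472. MIR30B and MIR30D lie 4268 bases apart on 1 strand, with no gene annotated around them. Within this last pair, miR-30d-5p had 296 counts and miR-30b-5p 3, pooled over the batches, a ratio of 98.7 (95% exact interval 33.4 to 481, counting error only). That interval treats the reads of all libraries as 1 sample. In the pair on chromosome 1, miR-30e had 37 counts over both arms (12 on the 5p and 25 on the 3p arm) and miR-30c-5p 54, part of which may come from MIR30C2. In the pair on chromosome 6, miR-30a had 6 counts over both arms, and the counts of MIR30C2 cannot be told apart from those of MIR30C1, apart from 1 count of miR-30c-2-3p.

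The study's interest in EV miRs lay in genes of fibrosis. The letters that pair with the 5p seed of miR-30 (TGTTTAC) were therefore searched on the transcript strand. The window was the longest annotated 3′ UTR of each human gene. The study's own target search took in complete transcripts, and its fibrosis genes were measured in mouse livers. The search here uses sequence alone, and a match is not a target. Of 72 genes for collagens, MMPs (matrix metalloproteinases), TIMPs (their inhibitors), ACTA2 (smooth muscle actin) and CCN2 (a growth factor of connective tissue), 11 held the letters, or 15.3%, beside 15.6% of 19120 genes in all. By group these were 8 of 44 collagens, 2 of 22 MMPs and 1 of 4 TIMPs, and ACTA2 and CCN2 did not hold them in this window. For the 3p seed of miR-30e (searched as ACTGAAA) the share was 20.8% of the list, beside 19.2% of all genes. The 1 TIMP was TIMP3, named after its values were seen, and its match lies in the 27 bases from 32862896 to 32862922 of chromosome 22 (GRCh38, plus strand), shown as an example with the searched letters in capitals.
TIMP3: ttcgtagcacTGTTTACagttttcctc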

How the data were processed

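Small RNA of HepG2 EVs was sequenced in 3 libraries, 1 per batch. The authors prepared them with a NEBNext kit, ran them on an Illumina MiniSeq, checked reads with miRTrace, and deposited 1 raw count for each miR name and library, with no normalization. The submitters' processing notes name GRCh38. For the aligner, the counter and reads shared by paralogs, nothing was given in the sources used here. The deposited mean of the counts and a shorter copy of the table were not used.

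Shares of the library total (7933 to 10834 counts), 95% Wilson intervals and log2 arm ratios (0.5 added) were computed. Libraries were compared for each miR by the exact multinomial test (at least 30 counts in sum) and for each precursor by an exact test with fixed margins (at least 10 counts), both enumerated in full, with Benjamini-Hochberg adjustment over all miRs or precursors tested and a threshold of 0.05. 1 library per batch left no spread for a fit in edgeR, which gave TMM factors only. The exact multinomial test was also run on data simulated with counting noise only. Such data hold no further spread between libraries, so they cannot show how sound calls between real libraries are. Alternatives covered scaling, count minimum, pseudocount, pooling and each batch left out. The members and lists were chosen with earlier results of these data known. The rule for naming took all members, the 5 miRs most like miR-30d-5p, the leading miRs of the groups ranked above miR-30 and, of the fibrosis genes, CCN2 and ACTA2. Outside it, let-7g-5p and TIMP3 were named after their values were seen, and cell type markers came from the marker lists. A planned ranking of seed groups was not run, because miR-30d-5p and miR-30b-5p were not matched to a sequence, and groups by name took its place. Scaling factors came from edgeR 4.0.16 and DESeq2 1.42.0 under R 4.3.3. All else ran in Python 3.11.15 (scipy 1.17.1 for the tests, pandas 2.3.3 and numpy 2.4.6 for the tables) and was drawn with matplotlib 3.10.9.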

Additional observations from a re-analysis of the deposited data

How the results depend on the processing

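No paired comparison of conditions was possible because every library belongs to 1 group. Of 33 alternatives to the main comparisons, 28 were held as unchanged in size or direction. The rule was loose, since 17 called miRs (without batch 3) in place of 25 still held as unchanged. So did 18 of 316 miRs with no minimum of counts, a far smaller part than 25 of 64. The 25 miRs that differed between batches became 15 once the 5 most abundant miRs were left out of the totals, and 4 (without batch 1) to 18 (without batch 2) when 1 batch was left out. The 3 precursors whose arm split differed became 0 without batch 1, 2 without batch 2 and 3 without batch 3. The family's share was 3.40% of the counts without the 5 most abundant miRs, where the total itself is smaller, and 1.13% to 1.65% with 1 batch left out. With bases 2 to 7 of the seed in place of 2 to 8, a length added after seeing the data, 19 of the 72 fibrosis genes held the letters, or 26.4%, beside 26.3% of all genes. For single members and name groups, 29 of 32 alternatives kept the call. The exceptions were both losses of the call of miR-30d-5p given in the report and the rank of the miR-30 name group, which was 4 without batch 2. miR-30d-5p exceeded miR-30c-5p by 2.07 to 2.84 on the log2 scale with 1 batch left out. The log2 ratio of the arms of miR-30e was -1.09 to -0.93 with 1 batch left out and -0.91 with a pseudocount of 1. The causes of these shifts were not tested. Depth limited the 6 members with at most 2 counts in a batch.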
